A study of Mus musculus with 4 samples.

Results

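The genes described here are 41 genes of cholesterol and fatty acid synthesis and of its control, chosen by symbol from a table of 16718 genes, where all 41 were found. They fall into 4 roles: 18 enzymes of sterol synthesis, 6 genes of SREBP control, 11 genes of fatty acid synthesis, elongation and desaturation, and 6 genes of LXR-driven efflux and cholesterol storage. The cells were naive CD4+ T cells from mice, stimulated with an antibody to CD3 for 4 hours. The labels name 2 libraries from cells with a conditional knockout of the zinc finger transcription factor Zfp281 (cKO) and 2 libraries from wild-type cells (WT). The driver of Cre, the age and strain of the mice and whether animals were pooled are not stated in the labels. The table holds 1 FPKM value per gene and genotype (reads or fragments per kilobase of gene, scaled to library size), so the spread between libraries is unknown and none of the differences could be checked against replicates.

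Cells make cholesterol from acetyl-CoA through mevalonate, isoprenoid units and squalene. When sterols in the endoplasmic reticulum run low, SCAP escorts the SREBP transcription factors to the Golgi for cleavage, and the released fragment raises the genes of sterol and fatty acid synthesis, while INSIG proteins hold SCAP back when sterols are plentiful. The LXR nuclear receptors respond to oxysterols and raise exporters of cholesterol. T cells turn on SREBP-driven lipid synthesis after receptor stimulation and need it to grow and divide.

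Sequences before the transcription start are shown for 5 of the genes that fell in cKO and had a promoter window from RefSeq. Msmo1, Hsd17b7 and Fasn also fell, by the rule given further on, and had a window but are not shown. Promoters were looked at because SREBP factors are known to act from them together with the CCAAT-binding factor NF-Y. Each run is the 250 bases before the annotated start in RefSeq's GRCm38.p6 tables, read 5' to 3' on the gene's strand, in lower case with CCAAT boxes (CCAAT, or ATTGG on the other strand) in capitals. In Hmgcs1 the capitals also mark the sterol regulatory element TCACCCCAC.
Hmgcs1 (chr13:119690101-119690350, plus strand): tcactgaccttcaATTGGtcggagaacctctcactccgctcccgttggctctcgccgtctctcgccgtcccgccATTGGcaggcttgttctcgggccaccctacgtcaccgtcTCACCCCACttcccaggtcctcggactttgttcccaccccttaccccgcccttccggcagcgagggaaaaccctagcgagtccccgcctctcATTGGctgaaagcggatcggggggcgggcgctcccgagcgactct
Idi1 (chr13:8885356-8885605, plus strand): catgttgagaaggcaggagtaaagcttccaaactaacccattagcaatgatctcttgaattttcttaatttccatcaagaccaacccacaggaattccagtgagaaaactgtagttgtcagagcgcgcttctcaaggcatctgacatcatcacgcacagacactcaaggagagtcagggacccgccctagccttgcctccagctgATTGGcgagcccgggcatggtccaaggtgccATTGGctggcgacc
Lss (chr10:76531355-76531604, plus strand): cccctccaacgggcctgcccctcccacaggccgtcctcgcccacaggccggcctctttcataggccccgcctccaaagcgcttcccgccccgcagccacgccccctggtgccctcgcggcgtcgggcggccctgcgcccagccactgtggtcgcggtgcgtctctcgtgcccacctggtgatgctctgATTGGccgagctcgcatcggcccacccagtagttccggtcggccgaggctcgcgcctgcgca
Cyp51 (chr5:4104698-4104947, minus strand): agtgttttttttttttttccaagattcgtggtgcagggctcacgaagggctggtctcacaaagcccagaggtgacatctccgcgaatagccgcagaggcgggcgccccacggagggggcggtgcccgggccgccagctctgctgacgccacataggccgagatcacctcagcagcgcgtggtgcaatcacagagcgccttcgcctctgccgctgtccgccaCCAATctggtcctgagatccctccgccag
Insig1 (chr5:28071162-28071411, plus strand): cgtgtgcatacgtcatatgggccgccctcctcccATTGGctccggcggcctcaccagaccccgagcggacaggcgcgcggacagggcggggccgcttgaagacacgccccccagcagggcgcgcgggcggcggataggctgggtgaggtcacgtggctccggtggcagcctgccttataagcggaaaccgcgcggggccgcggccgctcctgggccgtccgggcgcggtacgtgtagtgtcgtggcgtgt

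In the table as a whole, the depth, estimated from the FPKM steps of genes with very few reads, was 16538337 reads for cKO and 16650828 reads for WT. Zfp281, the deleted gene, had 0.44 FPKM in cKO cells and 66.3 FPKM in WT cells, 0.664% of WT (95% interval 0.470% to 0.911%), in the direction the labels give. The T cell markers Cd3d, Cd3e, Cd3g, Cd4 and Lck summed to 1352 FPKM in cKO and 1597 FPKM in WT. In this bulk RNA, fewer cells of a type and less RNA per cell cannot be told apart. Intervals for ratios of cKO to WT are 95% Clopper-Pearson intervals (exact) from estimated reads, so counting error is all they cover. "Fell" and "rose" are used of a gene at 1 FPKM or more in at least 1 genotype when the authors' deposited table gives it an FDR under 0.05 and the lower of its 2 values is at most 0.8 of the higher one. Of the T cell markers Cd3g fell by this rule, to 279.6 FPKM in cKO, against 381.9 FPKM in WT (0.732 of WT), and all 5 were lower by the FDR alone. Such a call compares 2 sets of reads and not 2 conditions, and the spread between animals or libraries does not enter it. Of 10728 genes with 1 FPKM or more, 6.47% fell and 8.97% rose by this rule, and their median log2 ratio of cKO to WT was 0.02.

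Of the 41 genes, 38 reached 1 FPKM. Of these 11 fell, 6 rose and 21 did neither, against the background shares of 6.47% falling and 8.97% rising. Their median log2 ratio was -0.09, with a range of -0.84 to 0.65. The plot of changes by role shows the counts in each role, and differences between roles were not tested. In sterol synthesis 8 of 18 genes fell and 1 rose (median log2 ratio -0.26), in SREBP control 2 of 6 fell and 1 rose (median -0.18), in fatty acid synthesis 1 of 9 fell and 2 rose (median 0.11), and among LXR and efflux genes none of 5 fell and 2 rose (median 0.14). Without the 14 members that share exon bases with another gene, 3 sterol enzymes were lower and 1 higher of 11, and in fatty acid synthesis the balance turned to 1 lower and none higher of 5. With the FDR alone and no minimum change, 15 members were lower and 9 higher, where 16.9% and 19.9% of all genes were. With a minimum change of 1.5-fold, 7 members were lower and 2 higher, where 1.97% and 3.03% of all genes were. The authors marked 0.939% of all genes as up or down, which in the authors' deposited table are the genes that changed 2-fold or more with an FDR no higher than 0.001, and 0 of the 41 were among them. The 11 genes that fell lie on 9 chromosomes. Hsd17b7, Insig2 and Soat1 share chromosome 1 with Zfp281, whose position on GRCm38 is 136624901 to 136630391, and Insig2 lies nearest to it (121304353 to 121332662).

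**Figure D1:**
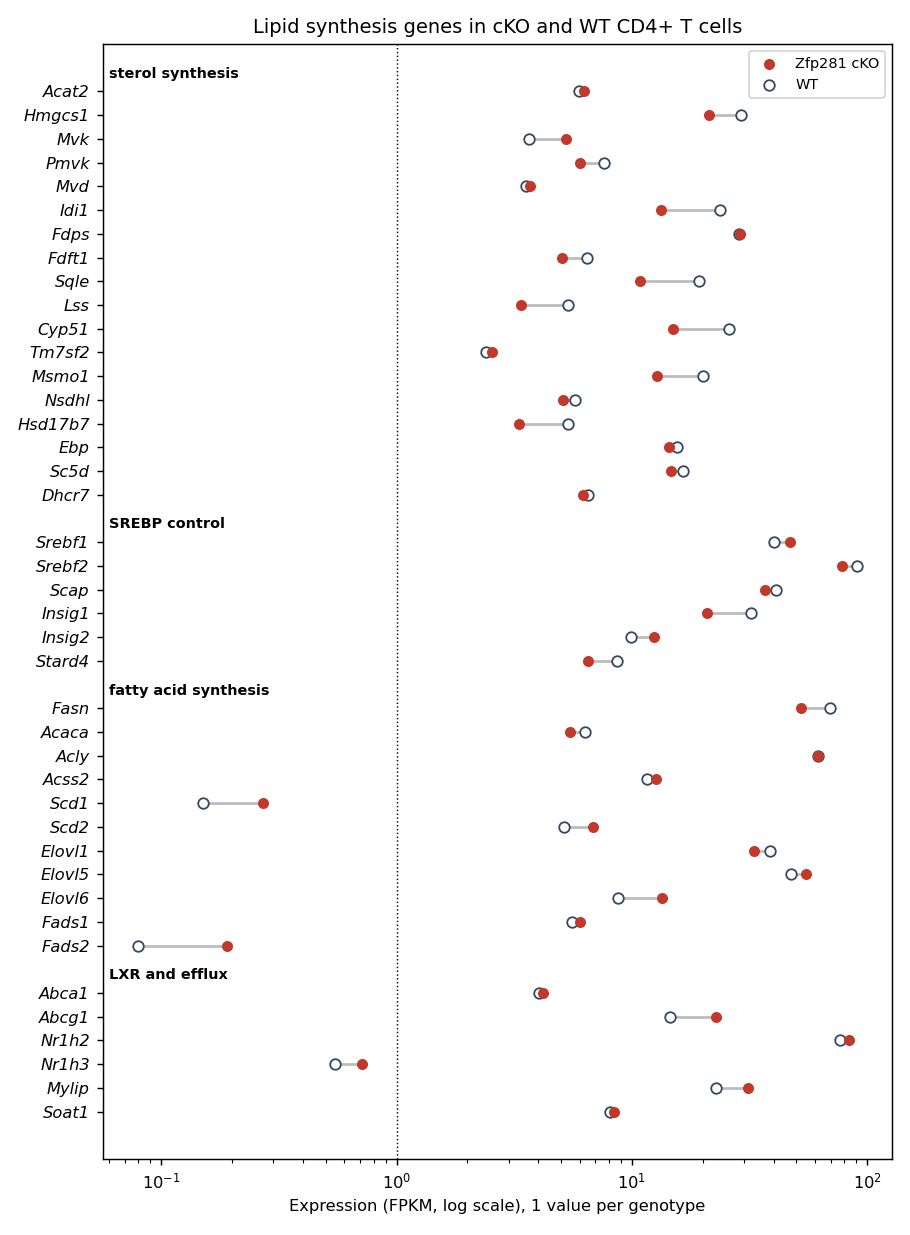
Expression of the 41 genes in FPKM on a log axis, with 1 value per genotype (filled points, cKO; open points, WT) and the 1 FPKM limit as a dotted line. Scd1, Fads2 and Nr1h3 lie under the limit in both genotypes, and the widest gaps among the other genes are those of sterol enzymes with cKO to the left of WT, and of Abcg1 and Elovl6 with cKO to the right.

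**Figure D2:**
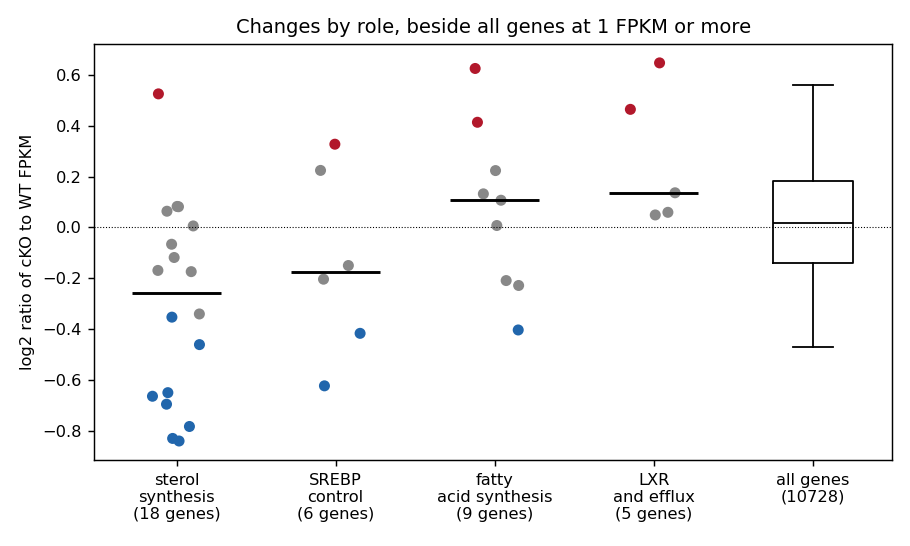
log2 ratio of cKO to WT FPKM for the 38 genes at 1 FPKM or more, by role (points, 1 per gene; blue fell, red rose, grey neither; bars, medians), beside all 10728 genes (box, quartiles and median; whiskers, percentiles 5 and 95). The median is -0.26 for sterol synthesis and 0.14 for LXR and efflux, against 0.02 for all genes.

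Within sterol synthesis, the falls were gathered at some steps: HMG-CoA synthase, the isomerase Idi1, and the run from squalene synthase through lanosterol to the demethylation complex, in which Tm7sf2 and Nsdhl did not pass. Summed over the 18 enzymes, the level was 177.8 FPKM in cKO and 231.3 FPKM in WT, a ratio of 0.769. The pathway up to squalene (8 enzymes) summed to 89.5 FPKM in cKO and 108.5 FPKM in WT. The 10 enzymes from squalene to cholesterol summed to 88.3 FPKM in cKO and 122.7 FPKM in WT. In the later segment 5 of 10 fell and none rose (median log2 ratio -0.41), and in the earlier one 3 of 8 fell and 1 rose (median -0.17). The difference between the segments was not tested.

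Among the entry steps, 1 enzyme fell and 1 rose. Acat2, which encodes a cytosolic thiolase that joins acetyl units, had 6.29 FPKM in cKO and 5.94 FPKM in WT and did not pass. Hmgcs1, the cytosolic HMG-CoA synthase, fell to 21.2 FPKM in cKO, against 29.1 FPKM in WT, 0.727 of WT (95% interval 0.675 to 0.783), with an FDR of 5.00e-17 in the authors' deposited table. Mvk, mevalonate kinase, was the exception of the pathway and rose, with 5.25 FPKM in cKO and 3.65 FPKM in WT. Its ratio of 1.44 rested on an estimated 149 and 104 reads and had a wide interval, 1.11 to 1.87. The next kinase, Pmvk, stood at 6.03 FPKM in cKO and 7.63 FPKM in WT, a ratio of 0.790 whose FDR of 0.164 in the authors' deposited table did not pass. Mvd, the decarboxylase that makes isopentenyl pyrophosphate, had 3.70 FPKM in cKO and 3.54 FPKM in WT, and its interval (0.793 to 1.38) is wide enough to include a change in either direction.

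Idi1, which isomerises isopentenyl pyrophosphate into the starter unit of all isoprenoid chains, fell to 13.3 FPKM in cKO, against 23.6 FPKM in WT. That is 0.563 of WT (0.510 to 0.621), and 1.99% of all genes tested had a lower log2 ratio. Fdps, the farnesyl pyrophosphate synthase just after it, had 28.7 FPKM in cKO and 28.6 FPKM in WT, a ratio of 1.004 (0.896 to 1.13). Its value is uncertain, since Fdps shares 26.7% of its exon bases with Gm43738 on the same strand, the largest share of any member. Fdft1, squalene synthase, fell to 5.03 FPKM in cKO, against 6.42 FPKM in WT (0.783 of WT, 0.673 to 0.911). It shares 774 exon bases with Ctsb on the opposite strand, and whether the counting used strand is not given, so its value is uncertain. The same holds, over smaller shares of their exon bases, for Hmgcs1 (12.1%), Idi1 (9.22%), Cyp51 (3.76%) and Lss (3.53%), each with a partner on the opposite strand.

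From squalene onward the falls came close together. Sqle (NCBI gene 20775, GRCm38 chromosome 15, 59315092 to 59331193), the squalene epoxidase and a rate-limiting step, showed the lowest ratio of the 38 genes, with 10.8 FPKM in cKO and 19.4 FPKM in WT, 0.559 of WT (0.49999 to 0.625). Lss, which closes the ring to lanosterol, had 3.38 FPKM in cKO and 5.35 FPKM in WT (0.632 of WT, 0.552 to 0.723). Cyp51, the lanosterol demethylase, fell to 15.0 FPKM in cKO, against 25.8 FPKM in WT (0.582 of WT, 0.539 to 0.627). These 3 enzymes act one after the other, and their intervals overlap. Msmo1, the methylsterol oxidase, had 12.8 FPKM in cKO and 20.1 FPKM in WT (0.638 of WT). Hsd17b7, which encodes the ketosteroid reductase of the same demethylation complex, had 3.32 FPKM in cKO and 5.37 FPKM in WT (0.618 of WT, 0.526 to 0.725). Nsdhl, the dehydrogenase of that complex, stood at 5.09 FPKM in cKO and 5.74 FPKM in WT and did not pass (0.887 of WT, 0.724 to 1.08).

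The sterol reductase Tm7sf2 and the last steps did not pass. Tm7sf2, which acts just after Cyp51, had the lowest level of the pathway, 2.55 FPKM in cKO and 2.41 FPKM in WT, on an estimated 63 and 60 reads. It shares exon bases with Vps51 on the same strand. Ebp, the sterol isomerase, had 14.3 FPKM in cKO and 15.6 FPKM in WT. Sc5d, the sterol desaturase, had 14.7 FPKM in cKO and 16.5 FPKM in WT, and Dhcr7, which completes cholesterol on one branch, had 6.21 FPKM in cKO and 6.50 FPKM in WT. The ratios of Ebp, Sc5d and Dhcr7, at 0.922, 0.890 and 0.955, were all under 1, and the interval of Sc5d (0.791 to 0.9999) ended just under 1.

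More reads give a smaller counting error and so pass the FDR at a smaller change. Over all roles, the 17 genes that rose or fell had a median of 690 estimated reads per genotype, and the 14 that missed the FDR had 385. The 7 that passed the FDR but not the minimum change had the highest median, 2685 reads. Among the 14, the largest change was 1.27-fold, in Pmvk.

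**Figure D3:**
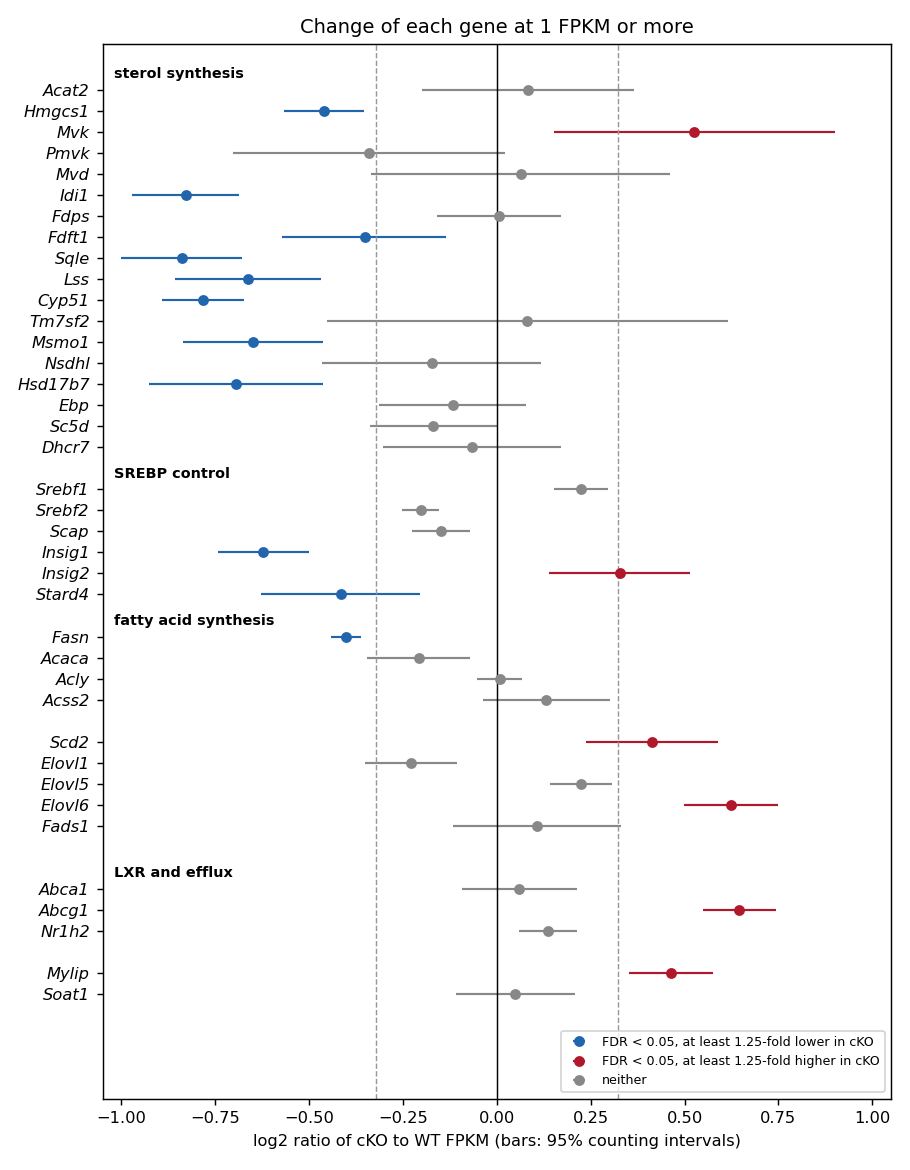
log2 ratio of cKO to WT FPKM for each of the 38 genes at 1 FPKM or more, in pathway order, with 95% counting intervals (bars) and the limits of the minimum change (dashed lines, 0.32 on the log2 scale either way). The lowest ratios are those of Sqle, Idi1, Cyp51, Hsd17b7, Lss, Msmo1 and Insig1, while Mvk, Insig2, Scd2, Elovl6, Abcg1 and Mylip lie to the right.

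Among the genes that control SREBP, Srebf2, Srebf1 and Scap neither fell nor rose by the rule. Srebf2, which encodes the factor that mainly drives sterol genes, had 78.3 FPKM in cKO and 90.1 FPKM in WT (0.869 of WT, 0.839 to 0.8996). Srebf1, whose products drive mainly fatty acid genes, had 46.9 FPKM in cKO and 40.2 FPKM in WT (1.17-fold, 1.11 to 1.23). The level of Srebf2 was thus 1.67 times that of Srebf1 in cKO and 2.24 times in WT. Both passed the FDR in the authors' deposited table, 1.07e-14 for Srebf2 and 5.38e-09 for Srebf1, but not the minimum change. Scap, the escort protein, had 36.9 FPKM in cKO and 40.9 FPKM in WT, also short of the minimum change. Scap shares 13.2% of its exon bases with a gene on the opposite strand. Srebf1 shares 3.11% with other genes, so the values of Scap and Srebf1 are uncertain too.

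The INSIG genes had ratios on opposite sides of 1. Insig1, itself a target of SREBP, fell to 20.8 FPKM in cKO, against 32.1 FPKM in WT (0.650 of WT, 0.598 to 0.707). Insig2 rose to 12.5 FPKM in cKO, against 9.95 FPKM in WT, 1.254-fold (1.10 to 1.43), which lies just past the minimum change. Its call is lost when ratios are divided by the median ratio of all genes. Insig1 was 1.67 times as high as Insig2 in cKO and 3.22 times in WT. Stard4, a sterol carrier under SREBP control, fell to 6.50 FPKM in cKO, against 8.67 FPKM in WT (0.750 of WT, 0.647 to 0.868). Of 8 other genes of SREBP cleavage and sterol-regulated degradation 1 fell and none rose, where 6.47% and 8.97% of all genes did (median log2 ratio -0.03). By the FDR alone Mbtps1 and Rnf145 were higher. The gene that fell was Erlin1, part of a complex that restrains the pathway, with 4.55 FPKM in cKO and 6.04 FPKM in WT.

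Fatty acid genes moved both ways. Fasn, fatty acid synthase, fell to 52.5 FPKM in cKO, against 69.4 FPKM in WT (0.757 of WT, 0.736 to 0.778), and its 8636 and 11490 estimated reads were the most of any member. Acaca, the carboxylase that makes malonyl-CoA for it, had 5.47 FPKM in cKO and 6.32 FPKM in WT (0.866 of WT) and passed the FDR but not the minimum change. The enzymes that supply acetyl-CoA did not pass. Acly, ATP citrate lyase, had 62.1 FPKM in cKO and 61.8 FPKM in WT with a narrow interval around 1 (0.965 to 1.048), and Acss2, acetyl-CoA synthetase, had 12.7 FPKM in cKO and 11.6 FPKM in WT.

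Of the members that act on the finished chain and reached 1 FPKM (Elovl1, Elovl5, Elovl6, Scd2 and Fads1), 2 rose and none fell. Over all genes 8.97% rose and 6.47% fell. Hsd17b12, an elongation gene outside the members, fell. Elovl6, which extends palmitate, rose to 13.4 FPKM in cKO, against 8.72 FPKM in WT, 1.54-fold (1.41 to 1.68). The level of Elovl6 was 0.256 of that of Fasn in cKO and 0.126 in WT. Scd2, a desaturase that makes monounsaturated chains, rose to 6.87 FPKM in cKO, against 5.16 FPKM in WT, 1.33-fold (1.18 to 1.504). Its close paralogue Scd1 was hardly expressed, with 0.27 FPKM in cKO and 0.15 FPKM in WT, and reads of the pair could be shared in counting. Elovl6 and Scd2 share 0.529% and 1.12% of their exon bases with a noncoding gene, so that leaving out every member with such sharing leaves fatty acid synthesis with 1 gene lower and none higher. Elovl5, an elongase of polyunsaturated chains, had 55.2 FPKM in cKO and 47.2 FPKM in WT (1.17-fold), and Elovl1, an elongase of very long chains, had 32.9 FPKM in cKO and 38.6 FPKM in WT (0.854 of WT). Neither reached the minimum change. Of the desaturases of polyunsaturated chains, Fads1 had 6.02 FPKM in cKO and 5.59 FPKM in WT and did not pass, and Fads2 stood at 0.19 FPKM in cKO and 0.08 FPKM in WT, a ratio of 2.38 on an estimated 5 and 2 reads with an interval of 0.378 to 25.1.

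The 5 LXR and efflux genes with 1 FPKM or more all lay above WT, as did 5699 of all 10728 genes, and 2 of them rose. Abcg1 (NCBI gene 11307, GRCm38 chromosome 17, 31057694 to 31117984), which exports cholesterol to lipoproteins, rose to 22.8 FPKM in cKO, against 14.6 FPKM in WT, 1.56-fold (1.46 to 1.67), with an FDR of 1.68e-40 in the authors' deposited table. Mylip, which encodes the LXR-induced ubiquitin ligase that degrades lipoprotein receptors, rose to 31.3 FPKM in cKO, against 22.7 FPKM in WT, 1.38-fold (1.28 to 1.49). The other exporter, Abca1, had 4.21 FPKM in cKO and 4.04 FPKM in WT (0.937 to 1.16) and did not pass. Transcripts of the LXR receptors were nearly all those of LXR beta, at 118 times the level of LXR alpha in cKO and 139 times in WT. Nr1h2, the gene of LXR beta, had 83.9 FPKM in cKO and 76.4 FPKM in WT (1.10-fold), the highest level of the 41 genes in cKO and the second highest in WT. Nr1h3, which encodes LXR alpha, had 0.71 FPKM in cKO and 0.55 FPKM in WT. Soat1, which esterifies cholesterol for storage, had 8.36 FPKM in cKO and 8.08 FPKM in WT.

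Macrophages also use these genes, and their markers are given here with those of other cell types. The 6 markers of monocytes, macrophages and dendritic cells summed to 1.96 FPKM in cKO and 1.14 FPKM in WT. None of them was at the lowest listed value. Lyz2 alone passed, at 1.09 FPKM in cKO and 0.22 FPKM in WT, on an estimated 19 and 4 reads (ratio interval 1.63 to 20.6). The rest of this list lay under 1 FPKM in both genotypes. Of these, Itgam, Itgax and Adgre1 had ratios above 1, and Cd14 and Csf1r had ratios below 1. Of the B cell markers, Cd74, which antigen-presenting cells of other kinds also express, had 11.9 FPKM in cKO and 7.63 FPKM in WT and passed as higher. Cd79a had 2.44 FPKM in cKO and 1.93 FPKM in WT, and Cd79b and Ms4a1 were each below 1 FPKM in both genotypes; none of these passed. Of the CD8 T cell markers, Cd8b1 had 17.8 FPKM in cKO and 11.5 FPKM in WT and passed as higher (1.55-fold). Cd8a had 0.47 FPKM in cKO and 0.28 FPKM in WT. Klrb1c of NK cells and the erythroid genes Hba-a1 and Hbb-bs were each below 1 FPKM in both genotypes. The part of other cell types in the results was not tested.

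**Figure D4:**
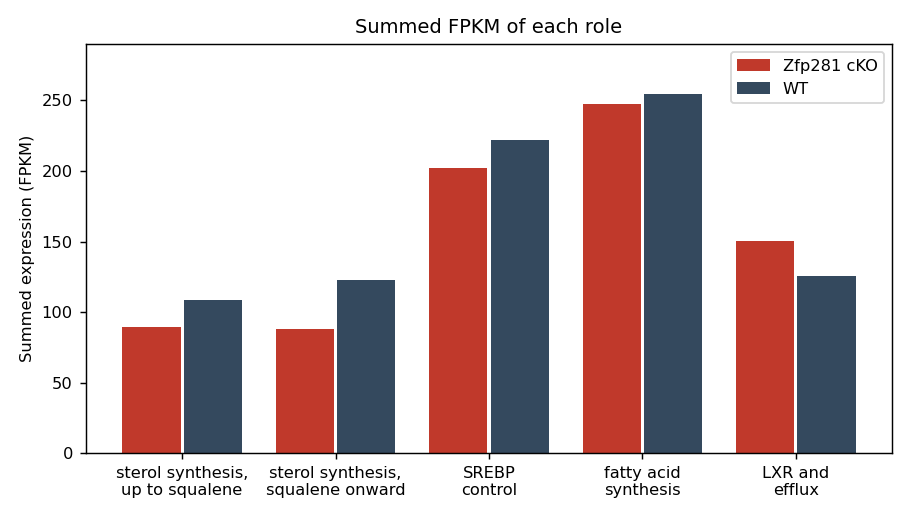
Summed FPKM of the genes of each role with 1 FPKM or more (bars from 0; left cKO, right WT), with sterol synthesis divided at squalene; no error can be given for 1 value per genotype. The later sterol segment shows 88.3 FPKM in cKO and 122.7 FPKM in WT, and LXR and efflux genes 150.6 FPKM in cKO and 125.8 FPKM in WT.

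Lists of neighbouring branches of lipid metabolism are given by their counts, to be read against the 6.47% of all genes that fell and the 8.97% that rose, or 16.9% and 19.9% by the FDR alone. None was tested against that background. Of 11 genes of the isoprenoid branch, which makes dolichol, ubiquinone and the lipid anchors of proteins from the same precursors, none rose or fell (median log2 ratio -0.10). By the FDR alone 2 of them were lower, Coq2 and Nus1. Of 8 further genes of fatty acid synthesis and elongation, Hsd17b12, the ketoacyl reductase of elongation, fell to 35.6 FPKM in cKO, against 46.8 FPKM in WT, and none rose. None of 4 acyl-CoA synthetase genes rose or fell, and by the FDR alone 1 of them was lower. Of 15 genes of fatty acid oxidation 1 rose and none fell: Cpt1a, which admits fatty acids to mitochondria, had 14.8 FPKM in cKO and 11.4 FPKM in WT, 1.31-fold (1.19 to 1.43). By the FDR alone 4 oxidation genes were higher and 1 lower. Of 10 other LXR targets and genes of sterol handling, Lipa, the lysosomal acid lipase that frees cholesterol from its esters, rose to 23.6 FPKM in cKO, against 18.5 FPKM in WT, and Nceh1, a neutral cholesterol ester hydrolase, fell to 3.32 FPKM in cKO, against 4.28 FPKM in WT. By the FDR alone 4 of these 10 genes were higher and 2 lower.

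The promoters of the sterol enzymes shared CCAAT boxes. RefSeq windows from 250 bases before to 50 after the start were found for 33 of the 41 genes, 15 of them sterol enzymes. Fdps, Fdft1, Sqle, Stard4, Scd1, Scd2, Fads1 and Abcg1 had no window, so no motif was searched in them. A CCAAT box, on either strand, lay in 14 of these 15 genes, 93.3%, against 41.1% of the 27025 genes in the promoter table. It was found in 6 of the 6 sterol enzymes that fell and had a window, and in 8 of the 9 that did not fall, so its presence did not separate them. The GC box GGGCGG lay in 93.3% of the sterol enzymes and 38.2% of all genes, and these promoters are rich in G and C, with a median of 60.8% over the windows of sterol enzymes and 52.7% over all windows. The shares over all genes were not limited to genes expressed in these cells, while all 15 sterol enzymes reached 1 FPKM. The sterol regulatory element, searched as TCACNCCAC on both strands, matched in 1 of the 33 genes, 137 bases before the start of Hmgcs1, and in 1.44% of all genes. The G-rich motif GGGGAGGG, resembling the sites Zfp281 is known to bind, lay in no window of the 15 sterol enzymes, in Elovl1, Elovl6 and Nr1h3, and in 12% of all genes (the 3 are 9.09% of the 33). The direct repeat of LXR, searched by its degenerate consensus, was in none of the 33 genes, which leave out Abcg1, and in 0.0962% of all genes. GC box and G-rich matches can overlap each other. A match shows the letters only, and no match says only that they are not in this window.

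**Figure D5:**
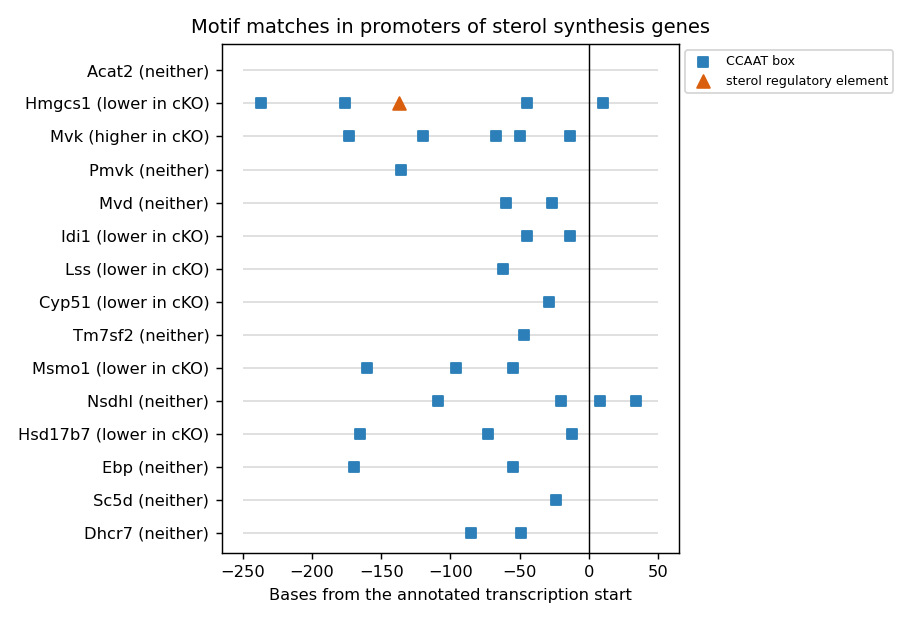
Matches to the CCAAT box (squares) and the sterol regulatory element (triangle) by distance in bases from the annotated start, for the 15 sterol enzymes with a promoter window; windows of genes with several starts are drawn on 1 line. The triangle is at 137 bases before the start of Hmgcs1, and Acat2 shows no match.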

How the data were processed

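Libraries were run on a BGISEQ-500 instrument, per the labels' protocols. Bowtie2 2.2.5 and the build mm10, which corresponds to GRCm38, come from the submitters' processing notes. How reads were quantified and tested, and with which annotation, is not given in the sources used here. In the deposited file FPKM values fill 1 column per genotype, with no statement of how the 2 libraries of a genotype were joined. The unit was taken from the values, since FPKM times gene length in kilobases sums to 999963 in cKO and 1000049 in WT. The log2 fold change as deposited equals the log2 ratio of the FPKM columns. The p-value per gene is the authors' own, as deposited, and the FDR is handled as a score because the deposited column reaches 1.03.

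Genes listed at 0.01 in 1 column have p-values on a ladder of 1 to 5 reads. From 281 such genes in cKO and 271 in WT, 1 read was worth 60.5 and 60.1 FPKM times bases, and 88.3% and 84.5% of them lay within 10% of that. An exact binomial test on estimated reads fell on the same side of 0.05 as the deposited p-value for 41 of 41 genes. For these genes the deposited test thus decided as a test of counting error alone would. The estimated reads rest on deposited p-values themselves, so the agreement is partly built in. On a simulated table the ratio intervals covered the truth for 95.3% of 10610 genes. That table was drawn with counting error only, as the intervals assume. It therefore checks the calculation and not how the intervals hold against spread between libraries. Python 3.11.15, pandas 2.3.3 and scipy 1.17.1 were used, with exon overlaps from GENCODE M21.

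Each call needs at least 1 FPKM in either genotype, an FDR below 0.05 and a lower value that is at most 0.8 of the higher one. No pseudocount was used. The members and lists were chosen with earlier results of these data known. Named genes are the members at 1 FPKM or more, Zfp281, and up to 3 called genes of each other list with the smallest p-value. Members under 1 FPKM, the markers, and Coq2 and Nus1 were named besides. One B cell marker is not reported here.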

Additional observations from a re-analysis of the deposited data

How the results depend on the processing

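No paired analysis was possible because the table holds 1 value per genotype and the columns carry no replicate number, and for the same reason no replicate could be left out. With the FDR alone the counts called were 6 of 6 in SREBP control (4 lower, 2 higher), 6 in fatty acid synthesis (3 and 3) and 3941 over all genes. At 1.5-fold they were 9 over all members (7 lower, 2 higher), 1 each in SREBP control, fatty acid synthesis and LXR and efflux, and 536 over all genes (1.97% lower, 3.03% higher), while 6 sterol enzymes stayed lower. Without the 14 members that share exon bases with another gene on either strand, an alternative chosen after seeing the data, 10 members were called, 4 of them sterol enzymes (3 lower, 1 higher), and 1 in fatty acid synthesis, which turned that balance to 1 lower and none higher. The median of SREBP control was then -0.31, and that of LXR and efflux was 0.30 at 5 FPKM or more. Over all members the median of -0.09 became 0.01 with no filter and log2(FPKM + 1), within its counting error. Dividing by the median ratio left 16 members called, without Insig2. Of the 76 values recomputed in these ways, 63 stayed within 1.5 times the count or within the counting error of the median. Depth limits members with few reads, such as Mvk, Mvd and Tm7sf2.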
